A study of Mus musculus with 40 samples.

Results

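The cytosolic ribosomal protein genes encode the proteins of the ribosome outside mitochondria. They were found by symbol: Rpl or Rps followed by a digit, or Rplp0, Rplp1, Rplp2 and Rpsa, without pseudogenes and without the Rps6k kinases, of which 10 symbols were left out. The rule found 86 of the 29411 genes on the array. Of these, 43 encode proteins of the large subunit, 31 proteins of the small subunit and 3 the acidic proteins of the stalk. The rule also took in 8 paralogs or copies of ribosomal protein genes and Rps19bp1, whose product binds a ribosomal protein and is not part of the ribosome.

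The small ribosomal subunit reads the messenger RNA and the large subunit joins the amino acids. A cell makes the proteins of both subunits in balanced amounts, and their mRNAs are among its most abundant transcripts. Many of these mRNAs start with a C followed by a run of pyrimidines, the 5′ TOP motif, through which mTOR signalling controls their translation. The cells around fat lobules include macrophages, lymphocytes, fibroblasts and endothelial cells, which can differ in how much ribosomal protein mRNA they hold.

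The study asked how gene expression in mouse subcutaneous stromal vascular cells (SVCs), also titled infiltrating macrophages, moved over time on different diets. C57BL/6J mice weaned at 3 to 4 weeks of age were kept under a 12:12 light cycle. The labels say that 5 animals per group were killed every 3 weeks, but not how many contributed to an array. The design text speaks of 3 biological replicates, but each diet has 1 array per time label among those used, so the pair of arrays with the same time label was the unit of comparison.

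The low-fat control group, LFC, ate a normal diet with 10% of calories from fat and has 11 arrays. The high-fat control group, HFC, ate a high-fat, high-sucrose diet with 60% of calories from fat and also has 11 arrays. Both were sampled at days 1, 6, 10 and 14 and at weeks 0, 3, 6, 9, 12, 15 and 18, where week 0 falls on day 14 of the diet and week 18 on day 140. A further 3 groups, named HF5, HF20 and HF75 after the dose, ate the high-fat diet with the botanical formulation Kal-1 at 5 µg (6 arrays), 20 µg (5 arrays) and 75 µg (5 arrays). HF5 was sampled from week 3 to week 18, and HF20 and HF75 from week 3 to week 15. Another 2 arrays of week 18 carry conflicting dose labels and were not used.

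Markers of several cell types were present. The macrophage gene Emr1 was well above background on 37 of the 38 arrays and Csf1r on 37. The fibroblast gene Dcn was well above background on 37 arrays, the endothelial gene Kdr on 38 and the adipocyte gene Adipoq on 35. The arrays therefore carried RNA of fibroblasts, vessels and adipocytes beside that of macrophages. In such bulk samples, fewer cells of a type and less RNA per cell cannot be told apart.

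Levels are log2 intensities minus the log2 of the array's 75th percentile. That percentile had a median of 798 intensity units, and 3 arrays of the low-fat group stood apart. The week 3 array was dim, with a percentile of 8.02 units and 16.8% of spots well above background. The day 14 array had 9104 outlier spots, which were dropped, and a percentile of 2169 units. On the week 18 array the 6 fibroblast markers had a median level of -5.83 and the 8 adipocyte markers one of -6.50, the lowest of all arrays, while the erythroid markers had the highest, 6.38. The first 2 of these arrays set most extremes of the ribosomal protein genes: 75 of 86 members were lowest on the day 14 array, and 46 were highest on the week 3 array.

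Most members were bright enough to reach the scanner's ceiling. Of the 86 members, 60 were saturated on at least 1 array, 40 on at least 19 and 25 on at least 30, while 26 were saturated on none. The stalk proteins Rplp1 and Rplp2, which recruit elongation factors, were each saturated on 37 arrays, and Rplp0, which anchors them to the ribosome, on 30. Rpsa, the small subunit protein also known as a laminin receptor, was saturated on none. The number of saturated members per array ran from 0 on the dim week 3 array to 58 on the HF5 array of week 3, with a median of 39.5.

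A saturated intensity is only a lower bound, so the normalized level of a saturated member followed the array's percentile. On the HF20 array of week 6, with a percentile of 1866 units, the saturated members had a median level of 5.12. On the HF75 array of week 9, with a percentile of 469 units, the median was 7.13. The brighter array thus gave the lower level for the same ceiling, and the levels of these members carry no measure of their RNA beyond that bound. Marker genes of other cells reached the ceiling as well. The fibroblast genes Dcn, Col1a2 and Col3a1 were saturated on 25, 24 and 21 arrays. The erythroid gene Hbb-b1 was saturated on 23 and the adipocyte gene Cfd on 16. Differences given below for these lists are thus not exact. The 26 members that were never saturated had a median level of 3.29 over the arrays, with the lowest, 0.58, on the day 14 low-fat array and the highest, 4.51, on the HF5 array of week 3.

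**Figure D1:**
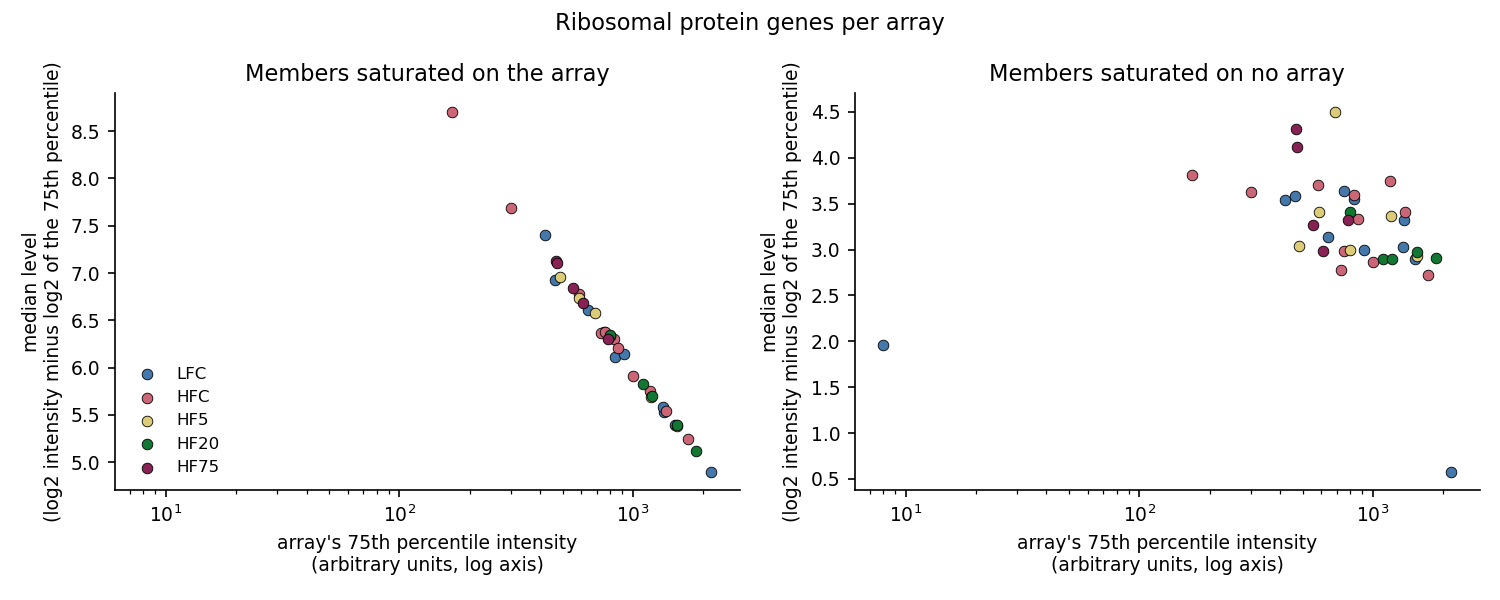
Median level of the ribosomal protein genes on each array (log2 intensity minus log2 of the 75th percentile) against the array's 75th percentile intensity (log axis), for members saturated on that array (left, 37 arrays) and for the 26 members saturated on no array (right, 38 arrays). Each point is 1 array, coloured by group; the saturated members fall along 1 line from 8.71 down to 4.90, while the others show no such line and reach 4.51 on the HF5 array of week 3.

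Arrays with high levels of the never saturated members included some with high lymphocyte markers. The HF5 array of week 3 had the highest median of these members, 4.51, and also the highest medians of the 5 T cell markers, 2.59, and of the 5 B cell markers, 2.65. The HF75 array of week 9 followed with a member median of 4.32, T cell markers at 2.13 and B cell markers at 2.35, and ranked 2 of 38 for each. The HF75 array of week 12 had the third member median, 4.12, with T cell markers at 0.82 and B cell markers at 1.71. Over all arrays the median was -1.10 for the T cell list and -1.73 for the B cell list, whose brightest probes were those of Cd3d and Cd79b. High levels also came without lymphocyte markers: the high-fat array of day 6 had a member median of 3.82, the next highest, with T cell markers at -2.56 and B cell markers at -3.05. The part of lymphocyte RNA in the members' levels was not tested.

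The members also differed in how much their levels varied. The SD of the level over the 38 arrays had a median of 0.88 over the members. The highest SDs belonged to Rpl3l at 2.60, Rpl10l at 1.90, Rpl6 at 1.56, Rpl39l at 1.39 and Rpl39 at 1.23. Rpl10l was well above background on 7 arrays, so its SD is mostly that of the arrays' floors. Rpl39 was saturated on 11 arrays, and its extremes of 0.77 and 10.39 came from the low-fat arrays of day 14 and week 3, while its SD within HFC was 0.51. Neither SD is thus a measure of how its RNA varied. Rpl3l is a paralog known from striated muscle and Rpl10l and Rpl39l are paralogs known from testis, whereas Rpl6 and Rpl39 are core large subunit proteins. Among the lowest SDs were those of Rpl7l1 at 0.44, Rpl27a at 0.66, Rpl36al at 0.66 and Rpl14 at 0.71. Of these, Rpl27a and Rpl14 are core ribosomal proteins and Rpl7l1 and Rpl36al are paralogs.

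The paralogs differed in how often they stood well above background. Rpl10l was well above background on 7 arrays, so it was tested in no comparison, and 85 members remained. Rpl7l1, a paralog linked to ribosome assembly, was near the array percentile in every group, with median levels from -0.12 in HF5 to 0.28 in LFC. Rpl22l1, whose product also binds RNA, ran from 3.66 to 5.24 over the high-fat arrays with a median of 4.63. Rps27l, a paralog of a small subunit protein that p53 can induce, ran from 3.58 to 5.36 over the same arrays with a median of 4.10. Rpl36al had a median of 2.65 there. These 4 paralogs were well above background on 37 or 38 arrays, unlike Rpl10l.

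Rpl3l, which replaces Rpl3 in ribosomes of striated muscle, had the widest range of all members. Over the low-fat arrays it ran from -6.88 to 2.46 with a median of -1.97, and over the high-fat arrays from -7.85 to 0.83 with a median of -3.20. The 2 groups overlapped almost fully, and the high and low arrays were spread over time labels. The level of Rpl3l went with the mean level of 5 skeletal muscle genes (Acta1, Myh4, Myh1, Ckm and Tnnt3), with Pearson r = 0.86 and Spearman rho = 0.83 over the 38 arrays. Both had a 2-sided permutation p of 2e-05, the smallest that the permutations can give, or 2.4e-05 adjusted over the 3 relations computed. Within the low-fat arrays alone r was 0.94 and rho 0.98, and within the high-fat arrays alone r was 0.98 and rho 0.93, with permutation p from 2e-05 to 0.00014. Without the 2 arrays farthest from the median of the muscle mean, r was 0.84 over all arrays, 0.92 within LFC and 0.93 within HFC. On 3 arrays (low-fat weeks 3 and 18, high-fat week 9) Rpl3l was not well above background and its level is the array's floor. Over the other 35 arrays r was 0.84 and rho 0.81. The arrays lay on 30 slides, too few arrays per slide for a value within slides. The lowest muscle mean was that of the low-fat array of week 18, -6.10, where Rpl3l was at the floor of -6.88, and the highest was that of the low-fat array of week 6, 6.34, where Rpl3l stood at 2.46.

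**Figure D2:**
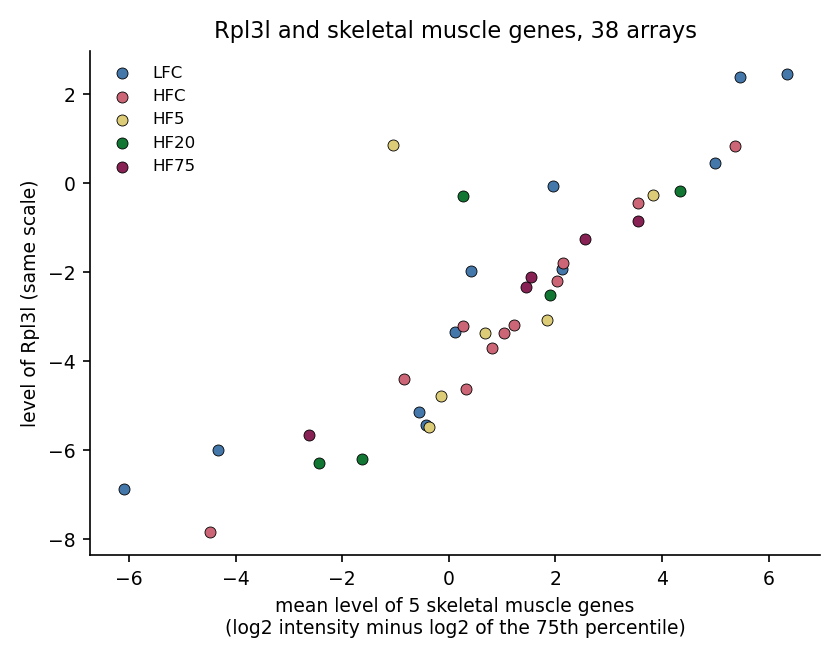
Level of Rpl3l against the mean level of 5 skeletal muscle genes, both as log2 intensity minus log2 of the array's 75th percentile, on each of the 38 arrays, coloured by group. Arrays with high muscle genes had high Rpl3l in LFC and HFC; the week 6 arrays of HF5 (muscle mean -1.05, Rpl3l 0.86) and HF20 (0.26 and -0.30) lie above the others.

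The first comparison asked what the high-fat diet did at matched times. Across the 11 pairs, 66 of the 85 tested members had a higher estimate in HFC than in LFC and 19 a lower one, with a median log2 difference of 0.19 against -0.05 over all 20827 genes tested. In limma, 0 members passed an adjusted p of 0.05, as for all genes (0% called), and 0 members had an unadjusted p under 0.05, against 2.99% of all genes. The 25 tested members that were never saturated had a median of 0.31, and 22 of them were higher. Some markers of other cells had larger estimates, none past the threshold. The 6 fibroblast and 5 endothelial markers were all higher, with medians of 1.26 and 1.25. The 4 epithelial markers all had lower estimates, with a median of -1.72, as had the 5 B cell markers, with -0.56. The pairs of both lists went both ways. The B cell median differed by -5.79 on day 1 and by 4.23 at week 15. The epithelial median was -4.25 in HFC and 2.56 in LFC on day 1, and -2.41 and -4.87 at week 12. The macrophage and T cell markers had medians of 0.20 and -0.05. The fibroblast and endothelial estimates rest largely on the week 18 pair, whose low-fat array stands apart. The fibroblast median differed by 11.31 there and by -1.29 to 2.19 in the other pairs. The endothelial median was -4.90 on that low-fat array and 3.14 on the high-fat array of week 18.

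The day 14 pair carried much of this. In that pair the member median was 2.91, and 83 of 84 measured members were higher in HFC. The other pair medians ran from -1.70 at week 3 to 0.92 at week 12. Without the day 14 pair the median over the members was -0.07, without the week 3 pair 0.35, and without both, a choice made after the data were seen, 0.08. Among the 4 pairs whose arrays shared a slide it was -0.33. The never saturated members had 0.07 without the day 14 pair, 0.07 in the pairs of a shared slide and -0.05 without both pairs. The sign of either median thus depended on which pairs were kept. Quantile normalization gave 0.09, normexp background correction 0.50 and array weights -0.08, with 57 of 85 members lower.

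Rps6, the small subunit protein that S6 kinases phosphorylate, had the lowest p. Its level ran from 1.21 to 5.41 with a median of 4.58 over the 9 low-fat arrays with a value, and from 4.38 to 5.68 with a median of 4.97 over 10 high-fat arrays. The ranges overlapped, and the 1.21 was that of the day 14 low-fat array. The log2 difference was 0.84 (SE 0.40, limma adjusted p = 0.93), with HFC higher in 7 of 9 pairs, and 0.54 without the day 14 pair. That 0.54 still includes the week 3 pair, whose low-fat array was dim and which gave 2.38. Rpl13a, a large subunit protein with a second role in silencing inflammatory mRNAs in myeloid cells, ran from -0.21 to 5.92 over 9 low-fat arrays with a median of 5.50, and from 4.08 to 6.34 over the high-fat arrays with a median of 5.64. Its groups overlapped as well, apart from low-fat values of -0.21 on day 14 and 2.54 at week 3. Its log2 difference was 1.22 (SE 0.61, limma adjusted p = 0.93), higher in 6 of 9 pairs, with 2 saturated high-fat values. It was 0.68 without the day 14 pair. Rpl6 had a difference of 1.11 (SE 0.56, limma adjusted p = 0.93), also higher in 6 of 9 pairs, and of -0.13 in the pairs that shared a slide. Its day 1 pair alone gave 5.21, and without it the difference was 0.60. The other probe of Rpl6 gave 0.46, and on day 1 it was higher in LFC, 4.87 against 4.01.

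The next comparison asked whether the members differed between weeks 3 to 18 and the first 14 days, with diet in the fit. It took the 2 arrays of a time label as independent, although 8 of 11 pairs correlated above 0.1. Its SEs and p-values thus do not allow for the pairing. Time and slide cannot be told apart here. In limma, 0 of 85 members passed the threshold beside 0.00463% of all 21599 genes, and 2, or 2.35%, had an unadjusted p under 0.05, against 4.39% of all genes. The median log2 difference was 0.15, with 65 members higher late, against 0.00 over all genes. The 25 never saturated members had a median of 0.04, with 14 higher, so most of the shift lay in members with saturated values. The adipocyte markers had a median of -2.28, with 7 of 8 lower late and 4 at an unadjusted p under 0.05, and the macrophage markers one of 0.59, none past the threshold. The fibroblast and endothelial markers were at -0.70 and -1.36. These 2 lists and the adipocyte list include the low-fat array of week 18, with medians of -5.83, -4.90 and -6.50. The T cell, B cell, skeletal muscle, erythroid and epithelial markers were all lower late. Their medians were -0.34, -0.79, -0.95, -1.04 and -1.32. The skeletal muscle median was also lowest of all arrays on the low-fat array of week 18, at -6.08. The direction of the member median was lost under quantile normalization, where it was -0.06, and without the day 14 pair, where it was also -0.06. Without the day 14 and week 3 pairs, left out after the data were seen, it was -0.24.

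The 2 members were Rpl6 and Rpl30, both of the large subunit. Rpl6 ran from -0.37 to 5.56 over 8 early arrays with a median of 3.80, and from 3.47 to 6.25 over 12 late arrays with a median of 5.28. The low-fat arrays of days 1 and 14 were below 0, the high-fat arrays of days 10 and 14, at 2.59 and 2.76, were also below every late array, and the other 4 early arrays lay within the late range. The log2 difference was 2.19 (SE 0.67, limma adjusted p = 0.81). The other probe of Rpl6 had medians of 4.03 early and 4.02 late and a difference of 0.08 in a fit with all probes, so the probes of this gene did not move together. Rpl30 ran from 1.54 to 5.54 over 9 early arrays with a median of 4.46, and from 4.20 to 8.73 over 12 late arrays with a median of 5.19. Its groups overlapped, with the lowest value on the day 14 and the highest on the week 3 low-fat array. Its difference was 1.43 (SE 0.51, limma adjusted p = 0.90). Next by p came Rps27a, a small subunit protein made as a fusion with ubiquitin, which was saturated on 4 low-fat and 5 high-fat arrays, so no fold change is given.

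The fit also tested whether the effect of the high-fat diet differed between the late and the early period. In limma, 0 members passed, as for all genes (0% called), and 0 had an unadjusted p under 0.05, against 4.51% of all genes. The median over the members was -0.70, with 73 of 85 lower, but the median over all genes was also low, -0.49. The never saturated members had a median of -0.41, with 17 of 25 lower. Lymphocyte markers had far larger estimates in the other direction: a median of 3.90 for the T cell list, with 4 of 5 at an unadjusted p under 0.05, and of 3.49 for the B cell list. Without the day 14 and week 3 pairs the member median was 0.25, and under quantile normalization it was 0.14. The lowest p belonged to Rpl6 at -2.26 (SE 1.03, limma adjusted p = 0.78), Rps27l at -1.24 and Rpl30 at -1.49. Each leaned on single pairs: Rpl6 was at -0.96 without the day 1 pair, and without the day 14 pair Rps27l was at -0.78 and Rpl30 at -0.61. Rpl30 also leaned on the week 3 pair, where its difference was -2.63. The other probe of Rpl6 gave -0.06.

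The 3 comparisons of Kal-1 used the same high-fat arrays as controls, so their values are not independent and stand side by side. They asked whether the formulation moved expression away from that of the high-fat diet. For HF5, HF20 and HF75, in this order, the 85 members had a median log2 difference from HFC of 0.03, -0.30 and 0.72. Over all genes tested the medians were 0.00, 0.08 and 0.02, and over the 25 never saturated members -0.01, -0.41 and 0.12.

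In HF5, limma called 0 members and 0% of 20842 genes, and 1 member, or 1.18%, had an unadjusted p under 0.05, against 5.48% of all genes. Of the 8 macrophage markers 6 were lower (median -0.42, 3 at that p). The 6 fibroblast markers were all lower (median -0.44), though Dcn, Col1a2 and Col3a1 were often saturated. The fibroblast median differed by -2.20 at week 3 and by -0.41 to 0.06 in the other pairs. The 5 T cell markers also had lower estimates (-0.62), but the pairs went both ways. Their pair medians were 1.44, -1.92, 0.54, 1.82, -2.72 and -3.31 from week 3 to week 18. The 3 erythroid markers tested were lower too (-0.89, 2 at that p). The 4 epithelial markers all had higher estimates, with a median of 2.60, but the pairs differed. From week 3 to week 18 the epithelial median was -5.12, 1.53, -5.25, -4.54, 2.62 and 2.30 in HF5. In HFC it was -4.46, -2.61, -6.14, -2.41, -4.59 and -4.69, so HF5 was lower at weeks 3 and 12. The pair medians of the members were 0.30 at week 3, 0.10 at week 6, 0.12 at week 9, 0.35 at week 12, -0.09 at week 15 and -0.67 at week 18. The member median over all pairs turned to -0.01 under quantile normalization and to -0.15 in the 3 pairs that shared a slide. The low p was that of Rpl21, described below with HF75. The next member was Rpl30 at -0.30 (SE 0.23, limma adjusted p = 0.94). Its HF5 value of week 3 was saturated, and with saturated values missing the difference was -0.46.

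In HF20, 80 of 85 members had a lower estimate than in HFC, including all 43 large subunit proteins, and 5 a higher one. The pairs were not uniform: the member medians were 0.00, -1.05, 0.14, -0.53 and -0.09 at weeks 3, 6, 9, 12 and 15, with 68 of 85 members higher at week 9. Without the week 6 pair the median over the members was -0.13, against -0.30 with all pairs. In limma, 0 members and 0% of 22087 genes passed the threshold. An unadjusted p under 0.05 was found for 5 members, or 5.88%, against 12.4% of all genes, and these shares were not tested against each other. Of the 5, 4 were among the 25 never saturated members. The count of members at that p was 0 without the week 6 or the week 15 pair, against 7.41% and 3.28% of all genes. It was 1 (1.18%) without the week 3 pair, against 18.8%, and 3 (3.53%) without the week 12 pair, against 4.87%. Without the week 9 pair it was 5 (5.88%), against 12.4%, and without the time block 1 (1.18%), against 7.14%. The members saturated on all 10 arrays numbered 26 and all had lower estimates, which follow the percentiles of the arrays. Of the 25 never saturated members, 20 were lower. The sign of the median was kept under quantile normalization (-0.15) and normexp (-0.07), with the median of all genes at -0.34 under the latter.

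Rpl10a, a large subunit protein that some ribosomes are reported to lack, had levels of 3.77, 3.39, 3.08, 3.43 and 3.36 at weeks 3, 6, 9, 12 and 15 in HF20. The matched high-fat arrays had 4.36, 4.23, 3.41, 3.72 and 4.25. Each HF20 array was below its pair, though the ranges overlapped. The difference was -0.59 (SE 0.21, limma adjusted p = 0.39), lower in 5 of 5 pairs. Rpl13a had levels of 6.11, 5.04, 4.75, 4.87 and 5.00 in HF20 and of 6.34, 5.81, 5.01, 5.77 and 5.84 in HFC. It too was lower in every pair while the ranges overlapped, with a difference of -0.60 (SE 0.22, limma adjusted p = 0.39). Its HFC values of weeks 3 and 15 were saturated and thus lower bounds, and with saturated values missing the difference was -0.64. Rps4y2, a copy of the small subunit gene Rps4x, went the other way, at 2.29, 2.58, 3.18, 2.90 and 2.97 in HF20 and 1.77, 1.79, 2.70, 2.64 and 2.30 in HFC. It was higher in 5 of 5 pairs, with overlapping ranges and a difference of 0.54 (SE 0.20, limma adjusted p = 0.39). The other 2 members with a low unadjusted p, named after their values were seen, were Rpl35a at -0.66 (SE 0.25) and Rps26 at -0.53 (SE 0.22), both lower in 5 of 5 pairs and both with an adjusted p of 0.39.

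Markers of other cell types also had estimates away from 0 in HF20, none past the threshold. The T cell markers had a median difference from HFC of -1.81, with 4 of 5 lower and 3 of 5 at an unadjusted p under 0.05. The 4 B cell markers tested were all lower, with a median of -1.28, and the 8 adipocyte markers all higher, with a median of 1.95. The pairs differed: the T cell median was lower by -3.96 at week 15 but higher by 1.04 at week 9. For the B cell median these values were -4.23 and 1.19. The adipocyte medians were 5.83 in HF20 and 1.95 in HFC at week 12, and 5.68 and 0.28 at week 15. They lay closer at weeks 3, 6 and 9, at 1.62 and 1.23, -0.34 and -0.79, and 5.39 and 5.25. All 8 macrophage markers were lower, with a median of -0.51 and 3 at an unadjusted p under 0.05. The 6 fibroblast markers were all lower as well (median -0.39, 2 at that p). With Dcn, Col1a2 and Col3a1 often saturated, that median is not exact. The 5 endothelial markers were also all lower (median -0.69). The share of these cells in the members' lower estimates was not tested.

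In HF75, limma called 0 of 85 members beside 1.11% of 20656 genes, while 39 members, or 45.9%, had an unadjusted p under 0.05, 38 of them higher, against 14.4% of all genes. Leaving out the pair of week 3, 6, 9, 12 or 15 gave 22, 42, 34, 16 and 29 members at that p. The share of all genes at that p was then 10.6%, 12.3%, 15.7%, 10.7% and 13.1%. At the adjusted threshold limma called 0 members in each of these fits, beside 0.00464%, 0.0329%, 0.697%, 0.412% and 0.127% of all genes. Most of the 39 were saturated members. The 25 members saturated on all 10 arrays were all among the 39, and their normalized differences lay between 0.74 and 0.90, with a median of 0.85. Both sides of these differences are ceilings, so they give no fold change. Of the 32 tested members saturated on none of the 10 arrays, 1 had an unadjusted p under 0.05, and it was lower.

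The pairs show the same split. The percentile of the HF75 array differed from that of its HFC array by -0.58 at week 3, -0.49 at week 6, -1.87 at week 9, -0.67 at week 12 and -0.60 at week 15 on the log2 scale. Members saturated on both arrays differed by medians of 0.55, 0.49, 1.88, 0.71 and 0.57, the same sizes with the sign turned. Members saturated on neither array had medians of -0.15, -0.44, 1.71, 0.70 and -0.49. These members were thus higher in HF75 in the pairs of weeks 9 and 12 and lower in the rest. The T cell marker median differed between the same arrays by 0.21, -3.21, 5.39, 2.43 and -4.05, and the B cell marker median by -0.90, -2.77, 7.01, 3.78 and -5.66. Over the 5 pairs the members and both lymphocyte lists thus had the same order, with weeks 9 and 12 highest and week 15 lowest. Over all pairs 7 of 8 macrophage markers had lower estimates in HF75, with a median of -0.96 and 4 at an unadjusted p under 0.05. Of the 6 fibroblast markers 4 were lower, with a median of -0.50 and 4 at that p. As Dcn, Col1a2 and Col3a1 were often saturated, this median is not exact. The 3 erythroid markers tested had a median of -1.45. None passed the threshold. How much of the members' differences came from other cells was not tested. Without the week 9 pair the median of the never saturated members was -0.10, and without the week 12 pair -0.02, against 0.12 with all pairs. Only the pairs of weeks 12 and 15 were scanned on the same day, and these 2 alone, a choice made after the data were seen, gave 0.14. Quantile normalization left a median of 0.06 over all members, with 1 at an unadjusted p under 0.05.

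**Figure D3:**
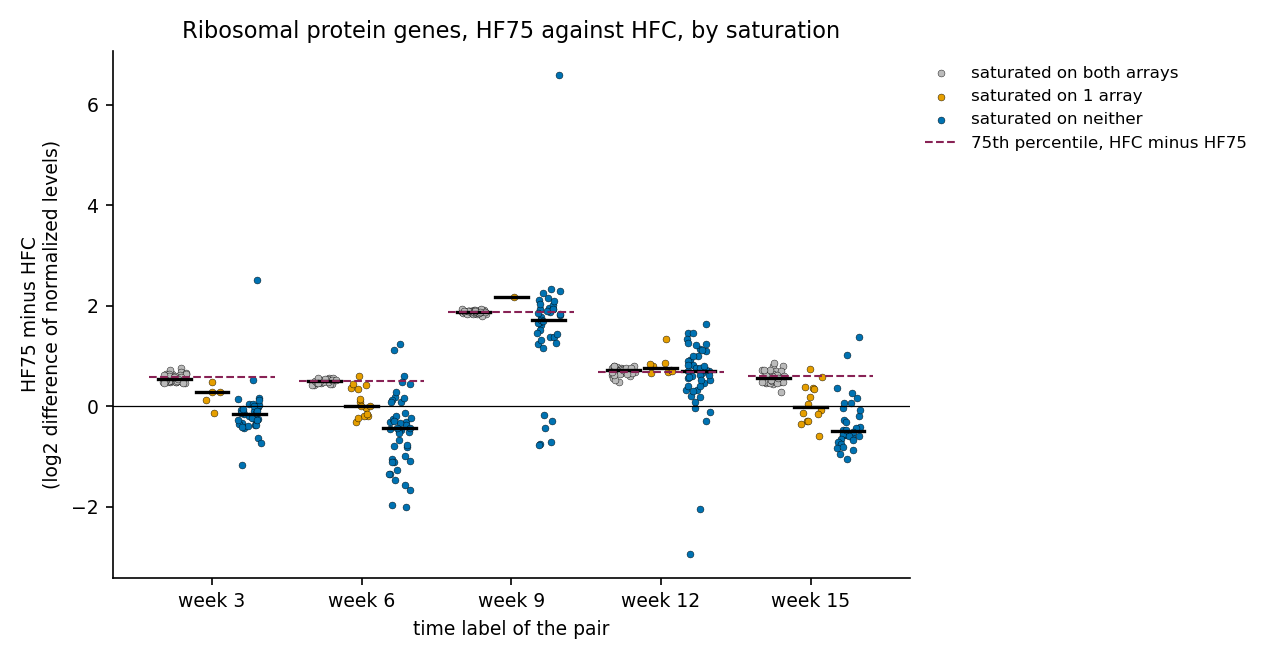
Log2 difference between the HF75 and the HFC array of each time label for each tested ribosomal protein gene (points), split by whether the gene was saturated on both arrays, on 1 or on neither, with medians as black bars. The dashed lines mark the difference of the arrays' 75th percentiles, HFC minus HF75; genes saturated on both arrays sit on them, at a median of 1.88 in week 9, while genes saturated on neither spread from below to above 0.

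The member with the lowest p was Rpl21, a large subunit protein. Its levels in HF75 were 0.14, -0.59, 0.64, -0.90 and 0.24 at weeks 3, 6, 9, 12 and 15, and those of the matched high-fat arrays were 1.32, 1.41, 1.41, 1.15 and 0.82. Every HF75 array was below every one of the 5 high-fat arrays. The log2 difference was -1.31 (SE 0.31, limma adjusted p = 0.12), lower in 5 of 5 pairs. In HF5 the difference was -0.68 (SE 0.24, limma adjusted p = 0.87), lower in 6 of 6 pairs, and in HF20 it was -0.35 (SE 0.44, limma adjusted p = 0.68), lower in 3 of 5. With array weights, the difference in HF75 was -1.22 and passed the threshold.

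A further probe for Rpl21 did not show this. Its levels in HF75 were -2.29, -1.88, -2.31, -1.45 and -1.72, and in the matched high-fat arrays -2.35, -1.89, -2.80, -1.94 and -1.96. The HF75 array was the higher of each pair and the ranges overlapped. In a fit with all probes its difference was 0.26 in HF75, 0.07 in HF5 and -0.08 in HF20. The brighter probe of Rpl21 is 1 of 5 chosen probes described as a predicted or similar transcript, so which transcript it reports is uncertain. With the mean of both probes the difference in HF75 was -0.53.

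**Figure D4:**
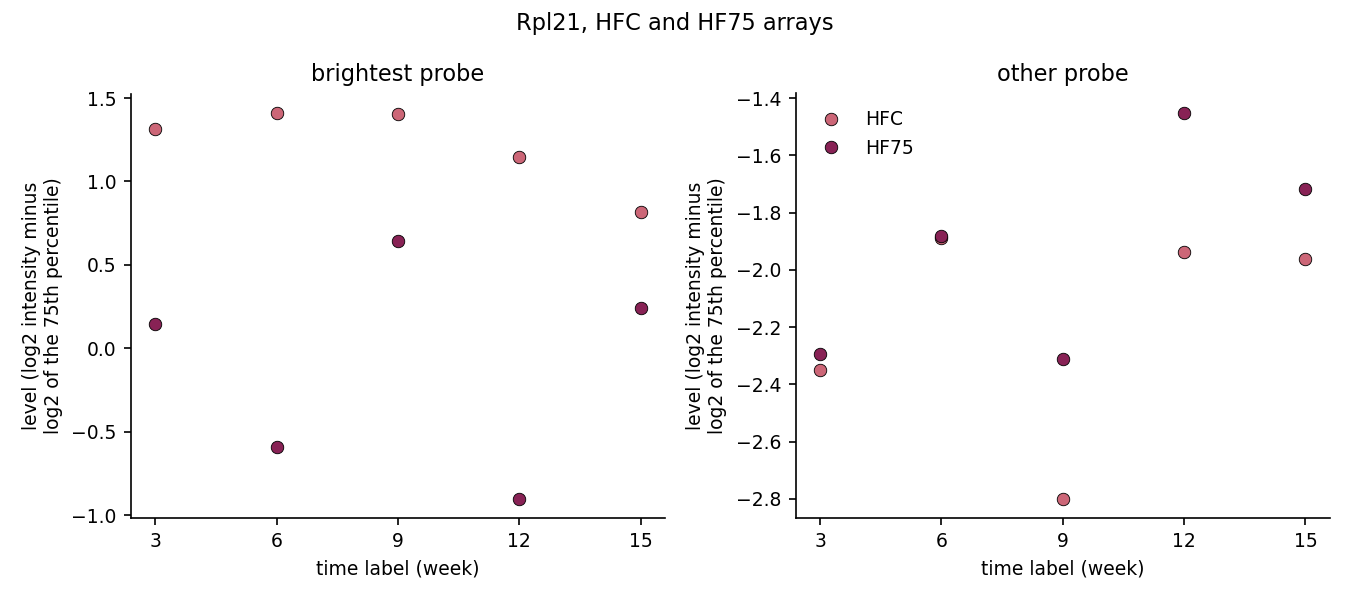
Level of Rpl21 (log2 intensity minus log2 of the array's 75th percentile) on the high-fat (HFC) and HF75 arrays of weeks 3 to 15, by its brightest probe (left) and its other probe (right), each with its own axis. By the brightest probe the HF75 arrays lie between -0.90 and 0.64 and the HFC arrays between 0.82 and 1.41; by the other probe the groups overlap.

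The next members by p, Rps29 and Rps18 of the small subunit, were saturated on all 10 arrays and so give no fold change. Of 4 members that the paper on this work names, there from liver, Rpl31 had a difference of 0.25 (SE 0.40), Rps15a of 0.64 (SE 0.43) and Rpl13a of 0.07 (SE 0.42) in HF75. Rps15a and Rpl13a were each saturated on 2 HFC arrays and on 0 HF75 arrays, so their values are not exact. The week 9 pair alone gave 1.88 for Rpl31, 2.25 for Rps15a and 1.92 for Rpl13a, far above the means, and the other pairs of Rpl31 and Rpl13a were mostly lower in HF75. Rpl39 was saturated on 4 of the 11 HFC and 2 of the 5 HF75 arrays, so no fold change is given. None passed the threshold in any of the 6 comparisons. Rpsa, with levels of 3.94, 3.10, 4.84, 4.55 and 3.32 in HF75 and 4.03, 3.33, 2.81, 2.91 and 4.14 in HFC, was higher in HF75 at weeks 9 and 12 and lower at the other times. Its difference was 0.51 (SE 0.47, limma adjusted p = 0.72). The binding protein Rps19bp1 had -0.09 (SE 0.25).

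Other genes of translation were read from lists. Of the 29 translation factors, 1 passed the threshold in HF75 and 3 had an unadjusted p under 0.05, beside 1.11% and 14.4% of all genes. Of them 15 had higher and 14 lower estimates, and the median difference was 0.03. In the other 5 comparisons 0 passed in limma, with 0 at an unadjusted p under 0.05. The factor that passed was Eif2s3x, a subunit of the initiation factor that brings the initiator tRNA. Its levels were 4.77, 3.82, 4.96, 6.30 and 4.23 in HF75 and 2.09, 1.13, 1.30, 4.76 and 2.38 in HFC. Each HF75 array was above its pair, and of the 5 matched high-fat arrays 1, that of week 12, lay within the HF75 range. Arrays outside this comparison lay in that range too. They were LFC at weeks 3 and 15 (5.75 and 4.12), HF5 at week 12 (4.38) and HFC at week 18 (4.03). No HF20 array did, the highest being 2.68 at week 3. The log2 difference of Eif2s3x between HF75 and HFC was 2.48 (SE 0.35, limma adjusted p = 0.031), higher in 5 of 5 pairs. It kept its direction but passed the threshold no longer when any 1 pair was left out, with differences from 2.19 to 2.72, without the time block at 2.48, with the mean over probes at 1.16 and in the 2 pairs of a shared scan day at 1.70.

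The 10 other genes with TOP mRNAs or linked to the ribosome had a median of 0.42 in HF75, and 9 were higher. Among them Fau and Gnb2l1 were saturated on 32 and 34 arrays, more often than most members. The 29 ribosome biogenesis factors found had a median of -0.01 in HF75, and the 15 regulators of the mTOR and Myc pathways one of -0.15. In limma 0 genes of these 3 lists passed in any comparison, and at an unadjusted p under 0.05 there were 3, 1 and 2 in HF75. In HFC against LFC the medians of the 4 lists were 0.21, 0.20, -0.05 and -0.01, beside 0.19 for the members. In HF5 they were 0.08, 0.04, 0.23 and 0.01, and in HF20 -0.02, -0.23, -0.04 and 0.30. Late against early they were 0.11, 0.18, 0.01 and 0.12, and for the difference of the diet effect -0.67, -0.85, -0.02 and -0.38.

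Some members have a pyrimidine run at the start of the transcript, which the symbol rule did not use. RefSeq starts on build GRCm38.p6 were at hand for 64 of the 86 members. A C at the first base followed by at least 4 pyrimidines, C or T, on the sense strand only, was present in 13 of the 64, or 20.3%. Of all 27025 genes with a start, 813 had it, or 3.01%. Allowing the C to lie within 5 bases of the start gave 29 members, or 45.3%, against 21.2% of all genes. Of the translation factors 2 of 22 had the run at the start, of the ribosome-linked genes 2 of 6 and of the biogenesis factors 0 of 25.

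The windows below are shown because they hold the start of the transcript, 15 bases before it and 15 from it on, with the C and its pyrimidine run in capitals. They come from Rplp2 (chr7:141447636-141447665, plus strand), Rps15a (chr7:118116133-118116162, minus strand), Rps6 (chr4:86857353-86857382, minus strand) and Rpl14 (chr9:120571502-120571531, plus strand).
Rplp2: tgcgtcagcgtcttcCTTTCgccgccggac
Rps15a: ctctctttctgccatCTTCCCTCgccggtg
Rps6: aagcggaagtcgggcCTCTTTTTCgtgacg
Rpl14: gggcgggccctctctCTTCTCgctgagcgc

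Other members had no such run at the start in this table, among them Rpl13a (chr7:45128731-45128760, minus strand), Rplp0 (chr5:115559452-115559481, plus strand) and Rpsa (chr9:120127751-120127780, plus strand). Their windows are printed for comparison, with nothing in capitals. Rpl13a shows pyrimidine runs a few bases further on. A match is a description of letters, not a site or a cause, and no match says only that the letters are not in this window.
Rpl13a: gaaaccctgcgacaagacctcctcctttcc
Rplp0: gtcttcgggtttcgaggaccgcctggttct
Rpsa: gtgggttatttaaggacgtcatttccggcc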

How the data were processed

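Single-colour Agilent arrays of 38 samples were read. Intensities come from Feature Extraction 10.5.1.1 per the file headers, background subtracted and unscaled between arrays. From the fold change table of the authors probe names, symbols and gene identifiers were taken, and its 40 columns of values per sample stayed unused. Outlier spots were dropped and log2 intensities shifted by each array's 75th percentile. Values too dim to stand clear of background were set to the lowest level on that array that did. The brightest probe stood for each gene. A gene was tested where either group had it well above background on 50% or more of its arrays. The fit used limma 3.58.1 (R 4.3.3) with the time label as a block, or diet and period for late against early, and a Benjamini-Hochberg adjusted p under 0.05 over all genes as the threshold. The same fits were tested on simulated data. Correlations used 100000 permutations (scipy 1.17.1, Python 3.11.15). Named members were the stalk proteins, Rpsa, paralogs, Rps19bp1, 4 members that the paper names for liver, the 5 highest and 5 lowest SDs and, per comparison, the 3 lowest unadjusted p; 1 member that this rule names is not reported here. Members and lists were chosen with earlier results of these data known.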

Additional observations from a re-analysis of the deposited data

Results flagged for a closer look

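In groups of 5 or 6 arrays, 9 of 93 tests found 1 array far from the others of its group, where chance marks about 1 in 20 groups. The tested values share arrays and are not independent.

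The HF5 array of week 3 accounted for 4 of the 9. Its median over the never saturated members was 4.51, against 3.41 on the nearest HF5 array. Rpl10a stood at 5.09 (nearest 3.73) and Rpl31 at 2.002 (nearest 0.27), both above the other HF5 arrays, while Rps4y2 stood below them at 0.83 (nearest 2.70). This array also had the highest T and B cell marker medians of all 38, 2.59 and 2.65, and ranked 37 of 38 for endothelial markers and 36 for both fibroblast and macrophage markers. Their part was not tested.

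The HF20 array of week 3 accounted for the other 5. Its median over the never saturated members was 3.41, against 2.98 on the nearest HF20 array. Rpl13a stood at 6.11 (nearest 5.04), Rpl27a at 3.29 (nearest 2.62), Rpl30 at 5.62 (nearest 4.82) and Rps15a at 6.11 (nearest 5.06). All 5 values lay above the other HF20 arrays. Its T cell marker median was 0.95 and its B cell marker median 1.72, both the highest of the HF20 group. So were its fibroblast and endothelial marker medians, 6.01 and 3.43, while its 75th percentile of 796 units was the lowest. The part of each was not tested.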

How the results depend on the processing

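Alternatives changed the background correction, normalization, filter, saturated values, probes, array weights, block and pairs. In 5 comparisons limma called 0 members under every one of them. In HF75, array weights called 1 member, Rpl21, with 5.45% of all genes called; the cause was not tested. The median over the members moved by less than its SD over pairs or arrays under all alternatives: from -0.33 to 0.50 in HFC against LFC, -0.15 to 0.28 in HF5, -0.42 to -0.07 in HF20, 0.06 to 0.88 in HF75, -0.24 to 0.55 late against early and -0.91 to 0.25 for the difference of the diet effect. Normexp moved the median of all genes to -0.23 in HF5, -0.34 in HF20, -0.17 in HF75, -0.18 late against early and 0.52 for the difference of the diet effect.

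Pairing by time label served as the block. After removal of group means, 2 arrays of a pair correlated over genes above 0.1 in 8 of 11 pairs of HFC and LFC, 6 of 6 of HF5, 3 of 5 of HF20 and 3 of 5 of HF75. Without the block, 0 members passed in these 4 comparisons, and calls over all genes in HF75 went from 230 to 0, Eif2s3x among them. Leaving out the pairs of day 14 and week 3, and keeping only pairs of a shared scan day in HF75, were chosen after seeing the data.

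Precision is limited by 5 to 11 pairs, by saturation in 60 members and by dim arrays, with signal over background from 1.53 to 55.4.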
